A study of Mus musculus with 12 samples.

Results

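The genes described here are the 9 mouse genes that encode the ligands and receptors of vascular endothelial growth factor (VEGF) signalling in the deposited expression table. They were found by gene symbol: the ligands Vegfa, Vegfb, Vegfc and Pgf, the receptor tyrosine kinases Flt1, Kdr and Flt4, and the co-receptors Nrp1 and Nrp2. All 9 of the 24015 gene symbols in the table were present, and all 9 were among the 12777 genes tested. RNA was sequenced from brain endothelial cells of wild-type C57BL/6 mice, in 6 old samples (19 months) and 6 young samples (3 months). Every sample pooled cortex and hippocampus of 2 mice. Endothelial cells were sorted by flow cytometry, complementary DNA was made with the SMART-seq v4 kit for low RNA input, and libraries with the Nextera XT kit. Neither the sort markers nor the sex of the mice is stated in the labels. Whether each pool held other animals is not stated either, and p-values therefore speak only of the spread between these 12 samples. Samples are named by age and title number: old 1, 2, 3, 4, 7 and 9, and young 1, 2, 3, 4, 5 and 9.

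VEGF-A, the product of Vegfa, is the main growth factor for blood vessels and also opens the endothelial barrier. It signals through VEGFR2, the product of Kdr, while VEGFR1, the product of Flt1, binds VEGF-A tightly, signals weakly and also exists as a soluble decoy. VEGF-B and placental growth factor bind VEGFR1, VEGF-C and VEGF-D bind VEGFR3, the product of Flt4, and neuropilins hold ligand at the receptors and also bind class 3 semaphorins. In adult brain, VEGF-A is made largely by astrocytes and other cells around the capillaries, and the receptors are on the endothelium.

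Promoter sequence is shown for Nrp1, the receptor gene that was lower in old samples, for Kdr and Flt1, the 2 receptor kinase genes whose ratio is also described, and for Vegfa, the ligand gene with the largest log2 fold. Each sequence is the stretch before the annotated start of transcription in RefSeq (GRCm38.p6), 5′ to 3′ on the gene's strand. The GCGTG and ACGTG cores, bound by hypoxia-inducible factors in hypoxia response elements, were searched on both strands, and capitals mark them, as GCGTG or, on the other strand, CACGC. The Nrp1 stretch is chr8:128358823-128359072 on the plus strand, the Kdr stretch chr5:75978459-75978705 on the minus strand, the Flt1 stretch chr5:147726012-147726261 on the minus strand and the Vegfa stretch chr17:46032378-46032627 on the minus strand.
Nrp1: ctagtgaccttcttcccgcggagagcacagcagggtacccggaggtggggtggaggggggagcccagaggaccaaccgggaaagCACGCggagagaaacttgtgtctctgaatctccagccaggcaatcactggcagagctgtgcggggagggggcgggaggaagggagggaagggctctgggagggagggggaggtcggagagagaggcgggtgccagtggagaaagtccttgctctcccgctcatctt
Kdr: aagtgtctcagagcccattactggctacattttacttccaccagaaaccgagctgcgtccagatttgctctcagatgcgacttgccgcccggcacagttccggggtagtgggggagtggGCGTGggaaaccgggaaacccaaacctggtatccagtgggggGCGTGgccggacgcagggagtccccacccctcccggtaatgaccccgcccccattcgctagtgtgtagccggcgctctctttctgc
Flt1: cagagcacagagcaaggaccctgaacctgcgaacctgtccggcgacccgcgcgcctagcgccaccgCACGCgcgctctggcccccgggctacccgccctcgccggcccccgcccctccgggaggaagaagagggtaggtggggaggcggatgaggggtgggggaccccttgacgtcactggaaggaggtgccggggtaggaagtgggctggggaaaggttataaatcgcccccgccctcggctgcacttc
Vegfa: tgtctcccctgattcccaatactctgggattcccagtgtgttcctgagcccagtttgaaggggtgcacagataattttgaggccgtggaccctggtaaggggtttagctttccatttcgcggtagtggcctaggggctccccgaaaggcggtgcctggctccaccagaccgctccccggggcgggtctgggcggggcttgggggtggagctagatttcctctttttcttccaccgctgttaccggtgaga
The Kdr stretch held 2 copies of GCGTG, 131 and 89 bases before the start. The Nrp1 stretch held 1 copy, 166 bases before the start, and the Flt1 stretch 1 copy, 184 bases before it. The Vegfa stretch held neither core in these letters. The window before a second annotated Vegfa start, most of which is Vegfa exon and is not printed, held GCGTG 218 bases and ACGTG 211 bases before that start. Of 32851 promoter windows of 250 bases in the same table, 28.2% held GCGTG, 16.6% held ACGTG and 38.6% held at least one of them. The Flt1 stretch also held TGACGTCA, the cyclic AMP response element, 81 bases before the start, as did 1.55% of windows. All 4 printed stretches held GGGCGG, the GC box bound by SP factors, on one strand or the other, as did 32.7% of windows.

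The deposited values are normalized counts, that is, read counts divided by a size factor for each sample, so they compare samples for 1 gene but not genes of different length. Total reads recovered from them ran between 25809499 and 40393814 per sample. A gene was tested where its mean over the 12 samples was at least 10. The test was limma on log2(value + 1), the p-values were adjusted by the Benjamini-Hochberg method across the 12777 genes, and the threshold was an adjusted p of 0.05. At that threshold 887 genes, 6.94%, passed, of which 477 (3.73%) were higher in old samples and 410 (3.21%) lower. The 14 endothelial markers summed to between 856416 and 1110278 normalized counts in old samples and between 964362 and 1134032 in young samples, and endothelial RNA was plentiful in all 12. Of these 14 markers, Cdh5 and Ocln fell and none rose (14.3% past the threshold, against 6.94% of all genes). Across genes, old 7 and old 9 stood apart: long genes were lower in them relative to short ones, with slopes of -0.15 and -0.23 log2 units per doubling of transcript length, while the other 10 samples lay between -0.04 and 0.13. Old 7, old 9 and young 9 also had lower values for GC-rich genes, with slopes of -0.08, -0.18 and -0.16 log2 units per 10 points of GC, where the other 9 samples lay between -0.02 and 0.13.

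Placental growth factor RNA rose in old samples and Nrp1 RNA fell. These were 1 member higher and 1 member lower past the threshold among the 9, against 3.73% and 3.21% of all genes tested. All 4 ligand genes had a positive log2 fold of old over young and all 5 receptor and co-receptor genes a negative one. The median log2 fold was 0.88 over the ligands, -0.33 over the receptors and co-receptors and -0.15 over the 9 genes, against -0.01 over all genes tested. Over the 14 endothelial markers it was -0.23, so a negative median was not particular to the receptors. Without adjustment, 6 of the 9 genes and 23.8% of all genes had p under 0.05. On the recovered reads, edgeR called 2 of the 9 genes, against 6.05% of all genes, and DESeq2 3 of the 9, against 10.2%. Scaling by TMM, by the upper quartile or by quantiles changed the sign of none of the 9.

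**Figure D1:**
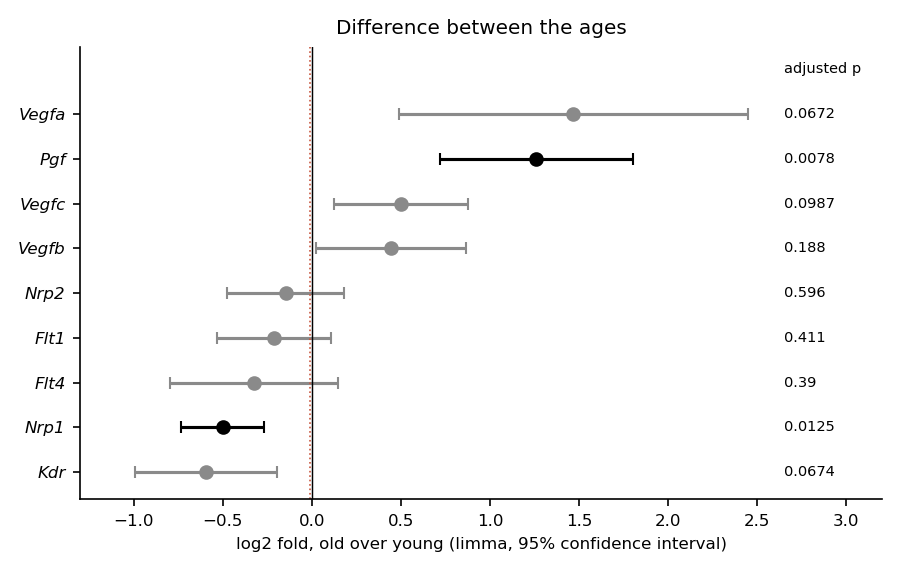
Log2 fold of old over young for the 9 genes from limma, with 95% intervals and adjusted p, ordered by log2 fold; the dotted line is the median of all genes tested, -0.01. The 4 ligand genes lie right of 0 and the 5 receptor and co-receptor genes left of it, and Pgf at 1.26 and Nrp1 at -0.50, in black, passed the threshold.

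Among the ligands, Pgf encodes placental growth factor, which binds VEGFR1 and Nrp1 and is known mostly from placenta and from vessels under injury. For Pgf, the lowest, median and highest normalized counts were 114, 176 and 220.3 in old samples, against 55.0, 65.0 and 127 in young samples. The groups overlapped through 1 pair only: old 9 at 114 lay below young 3 at 127, and the other 5 old samples were above every young sample. Pgf averaged 176 ± 36.2 in old samples and 74.6 ± 26.9 in young samples (SD, n = 6 each). The fitted fold was 2.39 (95% interval 1.64 to 3.48), a log2 fold of 1.26 (SE 0.25), with adjusted p = 0.0078 by limma, and all 6 old samples were above the young median. The counts behind these values were modest, between 50 and 261 reads per sample. On the recovered reads the adjusted p was 0.0129 by edgeR's quasi-likelihood test and 0.000125 by DESeq2.

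Vegfa, the gene of the main ligand, had the largest log2 fold of the 9 genes and the largest SE. For Vegfa, the lowest, median and highest normalized counts were 95.8, 243 and 505 in old samples, against 37.9, 69.3 and 234 in young samples. Old 3 was highest at 505 and old 2 next at 355, whereas old 4 at 95.8, old 1 at 122 and old 9 at 194 lay within the young range, whose highest sample was young 9 at 234. The log2 fold was 1.47 (SE 0.46), a fold of 2.77 (95% interval 1.4 to 5.46), and it missed the threshold with adjusted p = 0.0672 by limma and 0.0929 by edgeR, while DESeq2 gave 0.0258. Leaving out young 9 gave a log2 fold of 1.78 with adjusted p = 0.0179 by limma, and leaving out old 4 gave 1.71 with adjusted p = 0.033.

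Markers of astrocytes, a main source of VEGF-A in brain, were read in the same samples. The 12 astrocyte markers summed to between 12089 and 47619 normalized counts in old samples and between 6997 and 39202 in young samples. Old 3 had the highest sum of the old samples and young 9 the highest of the young ones, the same samples that were highest for Vegfa, and old 4 was lowest among old samples in both. The other young samples did not keep that order: young 2 had the second highest sum of the young samples, 10418, and the lowest Vegfa of all 12, 37.9, while young 1 had a sum of 8060 and the second highest young Vegfa, 113. Aldoc, a glycolytic enzyme of astrocytes, and Slc14a1, a urea transporter, rose, with log2 folds of 2.22 and 3.84. Slc14a1 averaged 146 in old samples and 49.7 in young samples and was at 0 in young 2 and young 3. No other marker of the list passed the threshold, but all 12 log2 folds were positive, between 0.08 and 3.84. Their median was 1.93 against -0.01 over all genes tested, and 16.7% passed against 6.94%. No astrocyte marker was at 0 in all samples. The 6 choroid plexus and ependyma markers summed to 3845 normalized counts in old 3, 2073 in old 2 and 1187 in young 9. Elsewhere their sum was at most 386, in old 4, and it was 0 in old 7, where Vegfa was 293. The part of astrocyte or choroid plexus RNA in the Vegfa values was not tested. Pgf in young 9, the young sample with the highest astrocyte sum, was 57.4 normalized counts, below the young median of 65.0.

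**Figure D2:**
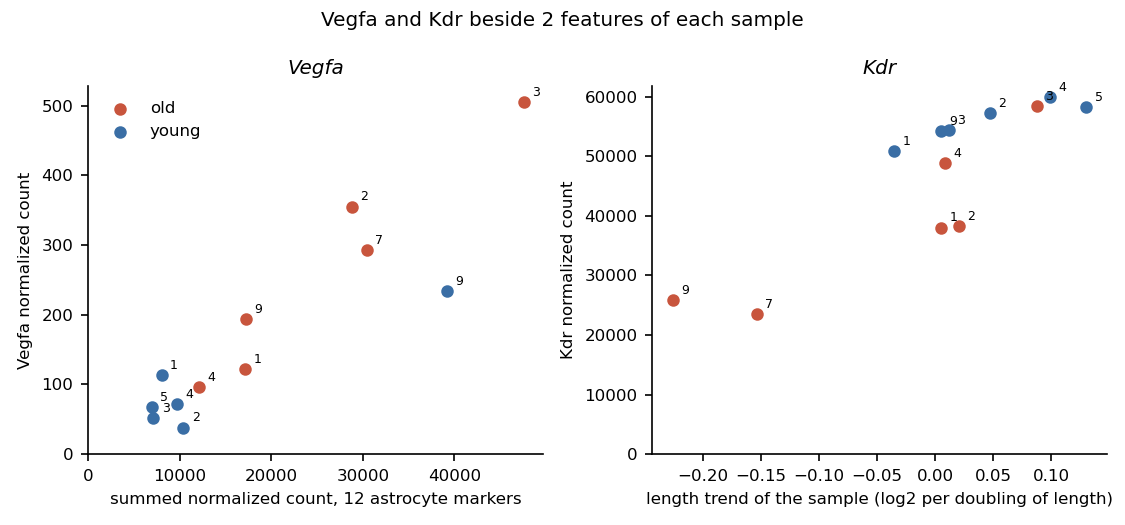
Vegfa and Kdr normalized counts of each of the 12 samples plotted against a feature of the same sample, the astrocyte marker sum for Vegfa and the length trend (slope in log2 per doubling of transcript length) for Kdr, old and young samples in different colours. Young 9 stands with the old samples on the astrocyte axis, and old 7 and old 9 have both the lowest length trends and the lowest Kdr.

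Vegfc encodes VEGF-C, the ligand of VEGFR3 best known for lymphatic vessel growth, and was the most abundant ligand RNA per kilobase. For Vegfc, the lowest, median and highest normalized counts were 3468, 4956 and 5375 in old samples, against 2391, 3125 and 4776 in young samples. The groups overlapped: old 3 and old 4 lay among the young samples, and young 1 at 4776 was above both. The fold was 1.41 (95% interval 1.09 to 1.84) with adjusted p = 0.0987 by limma, and without young 1 it was 0.62 on the log2 scale with adjusted p = 0.0418. Vegfb encodes VEGF-B, a VEGFR1 ligand linked to fatty acid uptake by endothelium. For Vegfb, the lowest, median and highest normalized counts were 218, 396 and 474 in old samples, against 206, 282 and 304 in young samples. Old 9 lay near the bottom of the young range and the other 5 old samples above all young samples. The fold was 1.36 (95% interval 1.01 to 1.82) with adjusted p = 0.188 by limma. No ligand gene was free of overlap between the ages, against 2.18% of all genes that were higher in every old sample. Figf, the gene of VEGF-D, is no member of the 9 and was low, with 39.0 ± 21.6 normalized counts in old samples and 24.4 ± 11.7 in young samples (SD, n = 6 each). Its log2 fold was 0.63, with adjusted p = 0.444 by limma.

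**Figure D3:**
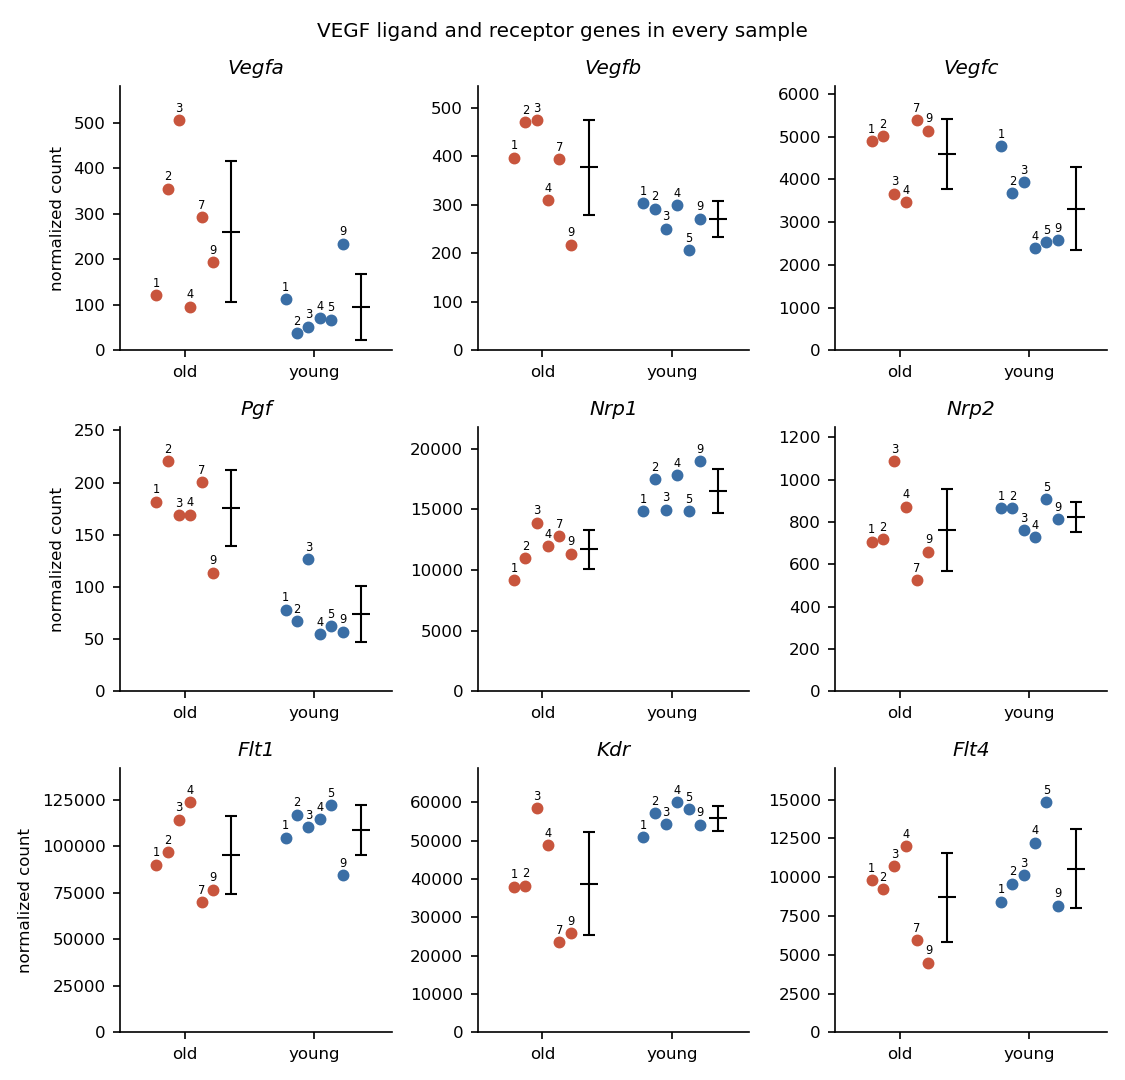
Normalized counts of the 9 genes in each of the 12 samples, 1 panel per gene, old samples left of young samples, with the title number above each point; the bar beside each group is its mean with SD. Nrp1 is the only gene with no overlap between the ages, with old samples up to 13904 and young samples from 14865.

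Nrp1 was the only one of the 9 genes whose groups did not overlap, against 2.11% of all genes that were lower in every old sample. It encodes neuropilin-1, the co-receptor that joins VEGF-A to VEGFR2 and also binds semaphorin 3A. For Nrp1, the lowest, median and highest normalized counts were 9144, 11674 and 13904 in old samples, against 14865, 16231 and 18953 in young samples. Old 3 was the highest old sample at 13904 and young 1 the lowest young sample at 14865. Nrp1 averaged 11700.1 ± 1635 in old samples and 16495 ± 1806 in young samples (SD, n = 6 each). The fold was 0.707 (95% interval 0.602 to 0.83), a log2 fold of -0.50 (SE 0.11), with adjusted p = 0.0125 by limma, 0.0179 by edgeR and 0.000473 by DESeq2. Quantile normalization ended the call, with a log2 fold of -0.35 and adjusted p = 0.097 by limma. In bulk samples, fewer cells of a type and less RNA per cell cannot be told apart.

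Markers of mural cells, which sit on the same vessels and can also express Nrp1, were read in the same way. The 12 pericyte and smooth muscle markers summed to between 1237 and 11954 normalized counts in old samples and between 2746 and 18493 in young samples. Of the 11 that were tested, Myh11 and Acta2, both contractile proteins of smooth muscle, fell and none rose (18.2% past the threshold, against 6.94% of all genes). All 11 log2 folds were negative, between -2.40 and -0.70, with a median of -1.44 against -0.01 over all genes tested. Old 3 had both the highest mural sum and the highest Nrp1 of the old samples. Its mural sum was above that of all young samples except young 4. Young 5 had the lowest mural sum of the young samples, below those of old 1, old 2 and old 3, and 14883 normalized counts of Nrp1. The part of mural RNA in the Nrp1 difference was not tested.

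Nrp2 encodes neuropilin-2, which binds VEGF-C and semaphorin 3F and is typical of veins and lymphatic vessels. For Nrp2, the lowest, median and highest normalized counts were 525, 713 and 1087 in old samples, against 728, 839.7 and 908 in young samples. Old 3 was above every young sample, and 4 of the other old samples were below every one, so the old values enclosed the young ones. The fold was 0.903 (95% interval 0.72 to 1.13), with adjusted p = 0.596 by limma. Without old 7, old 9 and young 9 together the log2 fold was 0.02.

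Kdr encodes VEGFR2, the kinase that carries most VEGF-A signalling in endothelium. For Kdr, the lowest, median and highest normalized counts were 23465, 38159 and 58403 in old samples, against 50871, 55783 and 59953 in young samples. All old samples except old 3, at 58403, were below the lowest young sample, and old 7 and old 9 were lowest, at 23465 and 25840. The old samples were far more spread than the young ones: Kdr averaged 38804 ± 13329 in old samples and 55787 ± 3293 in young samples (SD, n = 6 each). The fold was 0.662 (95% interval 0.503 to 0.872) and missed the threshold, with adjusted p = 0.0674 by limma, 0.119 by edgeR and 0.0511 by DESeq2. Without old 3 the log2 fold was -0.73 with adjusted p = 0.0172 by limma, without old 4 it was -0.68 with adjusted p = 0.0428, and without old 7, old 9 and young 9 it was -0.31 with adjusted p = 0.177.

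Flt1, the gene of the decoy and signalling receptor VEGFR1, was the most abundant of the 9 per kilobase. For Flt1, the lowest, median and highest normalized counts were 70005, 93557 and 123646 in old samples, against 84519, 112509 and 122163 in young samples. The ages overlapped, with old 4 above every young sample and old 7 and old 9 below every one. The fold was 0.864 (95% interval 0.692 to 1.08) with adjusted p = 0.411 by limma. Flt4 encodes VEGFR3, the VEGF-C receptor of lymphatic endothelium that is also made by growing and fenestrated blood vessels. For Flt4, the lowest, median and highest normalized counts were 4501, 9517 and 11990.1 in old samples, against 8162, 9853 and 14818 in young samples. Old 7 and old 9 were again lowest, and the other 4 old samples lay among the young ones. The fold was 0.798 (95% interval 0.575 to 1.11) with adjusted p = 0.39 by limma, and without old 7, old 9 and young 9 the log2 fold was -0.06.

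Old 7 and old 9 had the lowest Flt1, Kdr, Flt4 and Nrp2 of all 12 samples and the lowest length slopes. The longest annotated transcripts of these 4 genes are 6895, 5924, 6255 and 6723 bases. Nrp1 was 12823 in old 7 and 11361 in old 9, within the range of the other old samples. Its longest annotated transcript is 3645 bases, but all its exons together span 9785 bases, more than the 9030 of Kdr and the 8232 of Flt4. The part of transcript length in the receptor differences was not tested. Without old 7, old 9 and young 9, the log2 fold of Nrp1 was -0.49 with adjusted p = 0.0288 by limma and that of Pgf 1.29 with adjusted p = 0.0186. The 7 lymphatic endothelial markers summed to between 109 and 399 normalized counts in old samples and between 134 and 297 in young samples. The adhesion receptor gene Itga9 was the highest of them on average, with means of 155 in old samples and 147 in young samples. Ccl21a was at 0 in all 12 samples and Prox1 in 11 of 12, but other markers of the list were present. Pdpn averaged 60.3 normalized counts in old samples and 16.5 in young samples, and Lyve1 6.32 and 6.91.

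The balance between the receptor kinases was described as a ratio. The ratio of Flt1 to Kdr normalized counts had a lowest, median and highest value of 1.96, 2.53 and 2.98 in old samples, against 1.56, 2.04 and 2.10 in young samples. All old samples but old 3 were above every young sample, and the ratio does not depend on scaling between samples. It was highest in old 7 and old 9, at 2.98 and 2.97, and lowest in young 9, at 1.56. The part of the length and GC trends of these samples in the ratio was not tested. It averaged 2.56 ± 0.387 in old samples and 1.95 ± 0.201 in young samples (SD, n = 6 each). The ratio is given as a description, with no test. The Pgf to Vegfa ratio, between 0.334 and 1.77 in old samples and between 0.245 and 2.44 in young samples, overlapped between the ages. So did the ratios of Flt4 to Kdr, Nrp2 to Nrp1 and Nrp1 to Kdr.

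Levels of different genes were compared per kilobase of annotated exon. The scale is normalized counts per kilobase of all exons of a gene in GENCODE on GRCm38, with percentiles among the 12200 tested genes that had a gene model. Flt1 was highest, at 7059 ± 1545 in old samples and 8066 ± 988.6 in young samples (SD, n = 6 each), the 98.8th and 99.0th percentiles. Kdr was next, at 4297 ± 1476 in old samples and 6178 ± 364.7 in young samples, and Flt1 was above Kdr in all 6 samples of each age. By the length of all exons, the order of Nrp1 and Vegfc was not the same at both ages. In old samples Vegfc, at 1876 ± 332, was above Nrp1, at 1196 ± 167, in 6 of 6 samples, while in young samples Vegfc at 1353 ± 395 was below Nrp1 at 1686 ± 185 in 4 of 6. Flt4 followed, at 1057 ± 350 in old samples and 1282 ± 309 in young samples, and its range overlapped that of Nrp1 in old samples and that of Vegfc in young samples. Vegfb stood below all of these without overlap, at 235 ± 61.4 in old samples and 169 ± 23.2 in young samples.

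Nrp2, Vegfa and Pgf were the lowest of the 9 per kilobase. Nrp2 had 64.3 ± 16.4 in old samples and 69.6 ± 5.83 in young samples. Pgf had 60.5 ± 12.5 in old samples and 25.7 ± 9.25 in young samples, and Vegfa 60.8 ± 36.2 in old samples and 22.4 ± 16.9 in young samples. In young samples Nrp2 was above Pgf in 6 of 6 without overlap, whereas in old samples the 3 genes overlapped and no order held. Using the longest transcript in place of all exons raised the level of Nrp1 to a mean of 3868 over the 12 samples, above Vegfc. By that length Nrp1 was above Vegfc in mean level at both ages, at 3210 against 1876 in old samples and 4526 against 1353 in young samples.

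**Figure D4:**
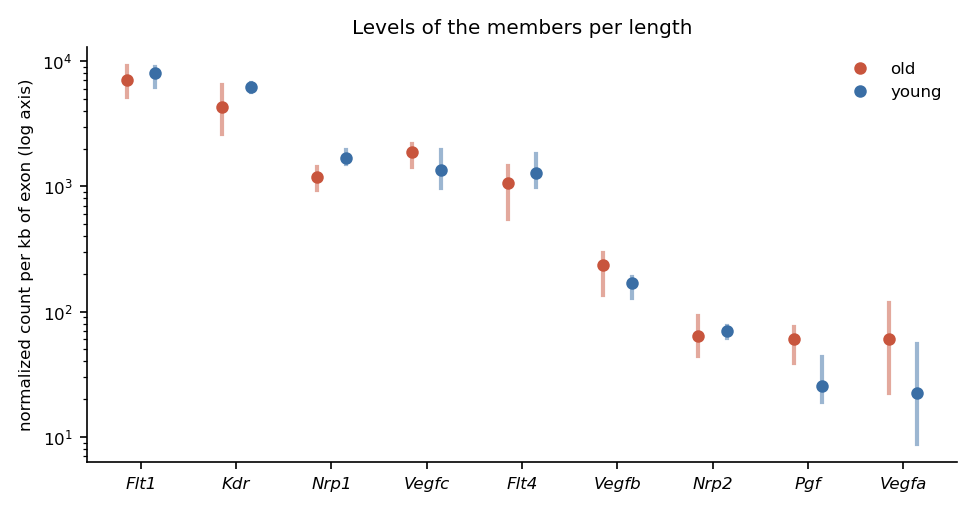
Normalized counts per kilobase of annotated exon for the 9 genes on a log axis, with a point at the mean of each age and a bar from the lowest to the highest of its 6 samples, old left of young for each gene. Flt1 and Kdr lie above all others, and Nrp2, Pgf and Vegfa lie lowest, with Pgf and Vegfa nearer to Nrp2 in old samples.

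The wider pathway was read from 6 lists of other genes, 174 in all, of which 161 were tested. Past the threshold, 4 were higher in old samples and 11 lower, together 9.32% against 6.94% of all genes, with a median log2 fold of -0.15 against -0.01. Of 43 genes that relay the signal close to the receptor, 1 rose and 4 fell (11.6%; median log2 fold -0.17). Prkcb, a protein kinase C isoform that acts below VEGFR2, averaged 2027 ± 277 in old samples and 3119 ± 360.0 in young samples (SD, n = 6 each), and its log2 fold was -0.62, with adjusted p = 0.00348 by limma. Fyn, a Src-family kinase, and Gab1, a docking protein of the receptor complex, had log2 folds of -0.67 and -0.51. Each lost its call in 1 of 27 alternative analyses, the 10 samples with shared title numbers without a block, with adjusted p = 0.0518 for Fyn and 0.0747 for Gab1 by limma. Yes1, another Src-family kinase, was the last of the 4 that fell, with a log2 fold of -0.50. Plcg2 rose: this phospholipase C gamma isoform, better known from immune cells, averaged 3678 ± 887 in old samples and 2060.0 ± 392 in young samples (SD, n = 6 each), and its log2 fold was 0.82, with adjusted p = 0.00699 by limma. Prkcb, Gab1 and Plcg2 did not overlap between ages, against 4.29% of all genes. They were named for their small p in these same samples, so the lack of overlap is no separate support.

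Of 31 genes that dephosphorylate, shed, traffic or degrade the receptors, 4 fell and none rose (12.9%; median -0.18). Adam17, a protease that sheds the VEGFR2 ectodomain, averaged 3536 ± 418 in old samples and 6221 ± 1028 in young samples (SD, n = 6 each), and its log2 fold was -0.81, with adjusted p = 0.000885 by limma. Dab2, a clathrin adaptor for VEGF receptor uptake, had a log2 fold of -0.46 with adjusted p = 0.0132 by limma. Its call was lost in 1 of 27 alternative analyses, a fit with title number as a block, with adjusted p = 0.057 by limma. Rasa1, a Ras GTPase-activating protein, and Numb, an endocytic adaptor, had log2 folds of -0.32 and -0.33, and their calls were lost in 10 and 12 of 27 alternative analyses. Leaving out old 3, old 7, young 2, young 3, young 4 or young 5 lost the call of Rasa1. When 1 sample was left out, its adjusted p reached at most 0.0718 by limma. Leaving out old 2, old 4, old 9 or any young sample but young 9 gave adjusted p between 0.0516 and 0.0804 by limma for Numb. Adam17, Dab2 and Rasa1 did not overlap between the ages, against 2.11% of all genes that were lower in every old sample, but they too were named for their small p.

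Of 31 genes that regulate or process the ligands, 1 rose (3.23%; median -0.08). Ppargc1a, a transcriptional coactivator that can induce Vegfa without hypoxia in muscle, averaged 148 ± 50.2 in old samples and 64.4 ± 30.7 in young samples (SD, n = 6 each), and its log2 fold was 1.27, with adjusted p = 0.04 by limma. Its call was lost in 14 of 27 alternative analyses, among them edgeR with adjusted p = 0.063. Leaving out old 1, old 2, old 4, old 7, young 1, young 3, young 4 or young 5 gave adjusted p between 0.0629 and 0.0892 by limma.

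Of 33 genes induced by VEGF or typical of tip cells, which lead vessel sprouts, 1 rose and 2 fell (9.09%; median -0.01). Aplnr, the apelin receptor, averaged 28.1 ± 39.1 in old samples and 678 ± 166 in young samples (SD, n = 6 each). It was at 0 in old 7 and old 9 and at most 83.8 in the other old samples, against at least 399 in every young sample, with adjusted p = 0.00142 by limma. Bmp2, a growth factor of the BMP family, averaged 55.4 ± 29.1 in old samples and 150.3 ± 52.1 in young samples (SD, n = 6 each), with adjusted p = 0.0257 by limma. That call was lost in 5 of 27 alternative analyses, among them those without young 1, young 2 or young 3, with adjusted p between 0.0569 and 0.0622 by limma. Adm, the vasodilator peptide adrenomedullin, averaged 1197 ± 505 in old samples and 440.0 ± 87.2 in young samples (SD, n = 6 each), and its log2 fold was 1.37, with adjusted p = 0.00228 by limma. None of Aplnr, Bmp2 and Adm overlapped between the ages, against 4.29% of all genes, but these also were named for their small p.

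Of 13 neuropilin partners, 1 rose and 1 fell (15.4%; median -0.30). Sema3c, a secreted semaphorin that binds both neuropilins, averaged 32194 ± 4788 in old samples and 43589 ± 2519.9 in young samples (SD, n = 6 each), and its log2 fold was -0.45, with adjusted p = 0.0193 by limma. That call was lost in 5 of 27 alternative analyses, with adjusted p up to 0.0849 by limma, among them the one without young 4, with adjusted p = 0.0517. L1cam, an adhesion molecule that complexes with neuropilin-1 in neurons, averaged 1245 ± 269.6 in old samples and 452 ± 194 in young samples (SD, n = 6 each), and its log2 fold was 1.53, with adjusted p = 0.00167 by limma. The 10 neuron markers summed to between 5990 and 12071 normalized counts in old samples and between 2936 and 3558 in young samples, and Stmn2, a microtubule regulator that rose with a log2 fold of 1.28, made up 96.3% of that sum in old samples and 93.8% in young samples. No other of the 5 tested neuron markers passed the threshold (20.0% past it, against 6.94% of all genes). Their log2 folds were 0.34 for Snap25, 0.17 for Gad1, 0.53 for Nefl and -0.37 for Camk2a. The part of neuronal RNA in the L1cam values was not tested. None of the 12 tested genes for related growth factors and receptors passed (median 0.03). The nearest was Tek, the angiopoietin receptor, at 40695 ± 4855 in old samples and 51044 ± 4414 in young samples (SD, n = 6 each), with adjusted p = 0.0746 by limma and 0.0187 by DESeq2.

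**Figure D5:**
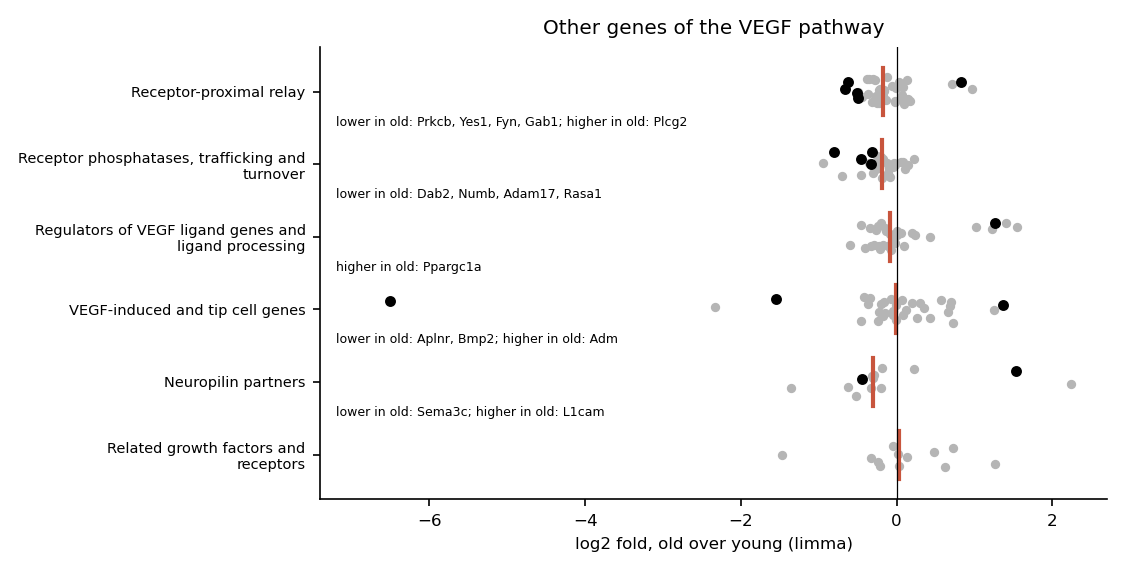
Log2 fold of old over young from limma for the 161 tested genes of the 6 pathway lists, with Angpt2 and Pdgfb drawn on both of their lists; black points passed an adjusted p of 0.05 and are named under each list, grey points did not, and the coloured bar is the list's median. Aplnr lies far to the left of all others.

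The genes most like Pgf and Nrp1 were sought by the correlation of deviations from each age's mean over the 12 samples. This is a description with no test, and the samples share their depth and cell makeup. For each, the 3 highest of all genes tested, members left out, were taken, so high correlations follow in part from that choice. For Pgf they were Ace, angiotensin-converting enzyme (Pearson's r = 0.87), Parva, an actin-binding adhesion protein (0.86), and Gm10536 (0.85). For Nrp1 they were Bex2 (0.91), Umps, an enzyme of pyrimidine synthesis (0.89), and Abcd3, a peroxisomal transporter (0.88). Of these 6 genes, Ace rose, with a log2 fold of 0.57 and adjusted p = 0.0387 by limma, and no other passed the threshold. The call of Ace was lost in 11 of 27 alternative analyses, among them those without old 1, old 2, old 3, old 7, young 2, young 4, young 5 or young 9, with adjusted p between 0.0532 and 0.0864 by limma. Bex2 was low, with means of 24.6 in old samples and 6.58 in young samples, and so was Gm10536, with 21.9 and 30.2.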

How the data were processed

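The values in the authors' deposited table are a signal per gene and sample: read counts divided by a size factor, in 12 samples of mouse brain endothelial RNA. Per the submitters' processing notes, the build was mm9 and the tools were STAR 2.4.2a, FastQC 0.11.2, R 3.2.2 and Cuffdiff 2.2.1. No source used here names the counting tool or the annotation. Whole reads were recovered from the steps of the values: 100% were whole within 0.001, and the factors of 12 of 12 samples equalled median-of-ratios factors within 1e-06.

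Genes with a mean of at least 10 were tested with limma 3.58.1 (R 4.3.3) on log2(value + 1). The fit used a trended prior and Benjamini-Hochberg adjustment over 12777 genes, 6 old against 6 young samples. Fold changes are on that scale. For low genes the added 1 shrinks the fold, while values near 0 in 1 group can enlarge it. Aplnr had a log2 fold of -6.50 by limma, against -4.62 by edgeR and -4.60 by DESeq2. Because the values are not counts, edgeR 4.0.16 (761 genes past the threshold) and DESeq2 1.42.0 (1408) on the recovered reads served as alternatives, beside other scalings, filters, pseudocounts and samples left out. The code was tested on simulated data. Symbols missing from every sample (6951 at 0 throughout) were not tested. Lengths and GC (GENCODE M21) and promoters (RefSeq) come from GRCm38, another build than the authors', and no coordinates were converted.

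The members and the gene lists were chosen with earlier results of these data known. Pathway genes named are up to 4 per list with the smallest p past the threshold, or the smallest p where none passed, plus the 3 genes most like each member past the threshold; Yes1, Figf and marker genes were named after their values were seen. Libraries do not mark strand, so antisense reads cannot be told apart.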

Additional observations from a re-analysis of the deposited data

Results flagged for a closer look

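Of 34 groups of 6 samples examined for a sample far from the others, 4 held one, and chance gives about 1 in 20. Pgf in young 3 had 127 normalized counts, with the next young sample at 78.2. The Flt1 to Kdr ratio of young 9 was 1.56, with the next young sample at 1.91. The astrocyte marker sum of young 9 was 39202 normalized counts, with the next young sample at 10418. The pericyte and smooth muscle marker sum of old 3 was 11954 normalized counts, with the next old sample at 3777.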

How the results depend on the processing

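Old samples were compared with young samples under 27 alternatives. The 887 genes past the threshold became 1380 with sample weights, 1408 by DESeq2 and 472 in the 10 samples with shared title numbers without a block, and leaving out 1 sample gave 554 (without young 4) to 1227 (without young 9). The 15 pathway genes became 24 by DESeq2, and 7 without and 12 with the replicate block in the 10 samples, with 10 to 19 when 1 sample was left out. The 2 members past the threshold became 1 under quantile normalization and 4 with sample weights, with 2 to 4 when 1 sample was left out. Vegfa passed with sample weights (log2 fold 1.56) and DESeq2 (1.44), with a range of 1.23 to 1.78 when 1 sample was left out. Vegfc ranged between 0.42 and 0.62. Kdr passed with sample weights (-0.49) and ranged between -0.73 and -0.46. Nrp1 lost its call under quantile normalization (-0.35). Nrp2 turned to 0.018 without old 7, old 9 and young 9, and Umps to -0.0083 in the 10 samples, with and without the block. Pgf passed in all 27. The cause was not tested. Per kilobase of the longest transcript in place of all exons, mean levels over the 12 samples were 14811 for Flt1, 7984 for Kdr, 1539 for Flt4, 3868 for Nrp1 and 118 for Nrp2. The labels do not say whether the 5 title numbers shared by both ages pair the samples. Deviations of same-numbered samples correlated between -0.16 and 0.0983, and 1 of 10 samples correlated best with its own number. Slopes by GC were alike in old 9 and young 9, at -0.18 and -0.16, and in old 1 and young 1, at 0.13 and 0.11. Those of old 2 and young 2 were 0.04 and -0.02, those of old 3 and young 3 were 0.043 and 0.049, and those of old 4 and young 4 were 0.018 and 0.064. With the replicate block over those 10 samples 610 genes passed, with Pgf at 1.18 (adjusted p = 0.0495) and Nrp1 at -0.56 (adjusted p = 0.0219) by limma. Depth limits Vegfa and Pgf, with 32 and 50 reads in their lowest samples.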
